A study of Mus musculus with 20 samples.

Results

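The effect of an added CAR deficiency on the liver response to TCPOBOP was examined in mice that already lacked PXR. The comparison set 4 arrays of CAR/PXR deficient livers (CARPXRKO) against 4 arrays of PXR deficient livers (PXRKO), chosen by the genotype in the sample titles, 8 of 20 arrays in the series. CAR, the constitutive androstane receptor, and PXR, the pregnane X receptor, are nuclear receptors of hepatocytes that bind DNA as partners of RXR and switch on genes of drug oxidation, conjugation and transport. TCPOBOP is a potent agonist of mouse CAR and has served as the standard tool to activate it in mouse liver. The targets of CAR and PXR overlap, and livers that lack one or both are used to tell their parts in a drug response apart.

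All animals were male C57BL/6J mice of 9 to 12 weeks. The treated mice received 10 mg/kg TCPOBOP by intraperitoneal injection, and vehicle mice received 5% DMSO in corn oil. Livers were taken after 12 h. On each array the Cy5 channel held RNA of 1 treated CARPXRKO or PXRKO liver. The Cy3 channel held a pool made from 6 vehicle livers of that genotype. Every genotype had 1 pool, and the labels do not describe the alleles behind the deficiencies. A response below is the log2 ratio of treated over pool, and a difference is the mean response in CARPXRKO minus that in PXRKO. The wild type (WT) and CAR deficient (CARKO) arrays, 6 of each, shared the model, its estimate of the spread and the filter on probes, and also gave the contrast CARKO minus WT. The label of the pool on CARPXRKO 3 names PXR deficiency alone in its genetic background and both receptors in its source, and the protocol text of its Cy5 channel describes vehicle.

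The Sterolgene array carries 120 mouse probes, at 3 spots each, and 82 probes entered the test because each of the 4 genotypes had values on 3 or more arrays. Probes are given by identifier, because no source used here ties them to genes. Transcripts of the receptors, liver markers and gene families were for that reason not examined. Median Cy5 signals over mouse spots were 439 to 902.5 intensity units on the CARPXRKO arrays and 403 to 987 on the PXRKO arrays. Between 35 and 73 probes stood well above background in Cy3 on the CARPXRKO arrays, against 50 to 69 on the PXRKO arrays. No spots were flagged on CARPXRKO 1, while the largest number on a CARPXRKO array was 148, and 131 to 222 were flagged on the PXRKO arrays. The number of arrays limits the precision.

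Across the 82 probes, pairs of arrays had a Pearson correlation of 0.50 to 0.70 within CARPXRKO and 0.58 to 0.91 within PXRKO. Between the genotypes the 16 pairs gave −0.56 to 0.02, so no pair of arrays from different genotypes correlated clearly above 0 and some correlated below it. The dye labels put the treated liver in Cy5 on all 8 arrays, and the direction was kept. Probes are not independent replicates, and arrays of a genotype share their pool. PXRKO 2 was least like its own group, with a mean correlation of 0.59 to the other PXRKO arrays, where the other 3 had 0.74 to 0.78.

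The response was lower in CARPXRKO than in PXRKO for 12 probes and higher for 11 (limma, Benjamini-Hochberg adjusted p under 0.05). These were 14.6% and 13.4% of the 82 probes tested, and 28.0% in all. The lower probes were the larger differences. Their median difference was −1.36 on the log2 scale, with a range of −5.07 to −0.73, while the higher probes had a median of 0.61 and a range of 0.41 to 1.60. The median over all 82 was 0.07, a value that loess centring of each array holds near 0. A difference beyond 1, a doubling, was found for 9 of the 12 lower probes and for 2 of the 11 higher ones. The standard error was 0.19 at the median probe. The treated livers are the replicates, so these tests leave out the spread between vehicle animals and any error of a genotype's single pool.

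**Figure D1:**
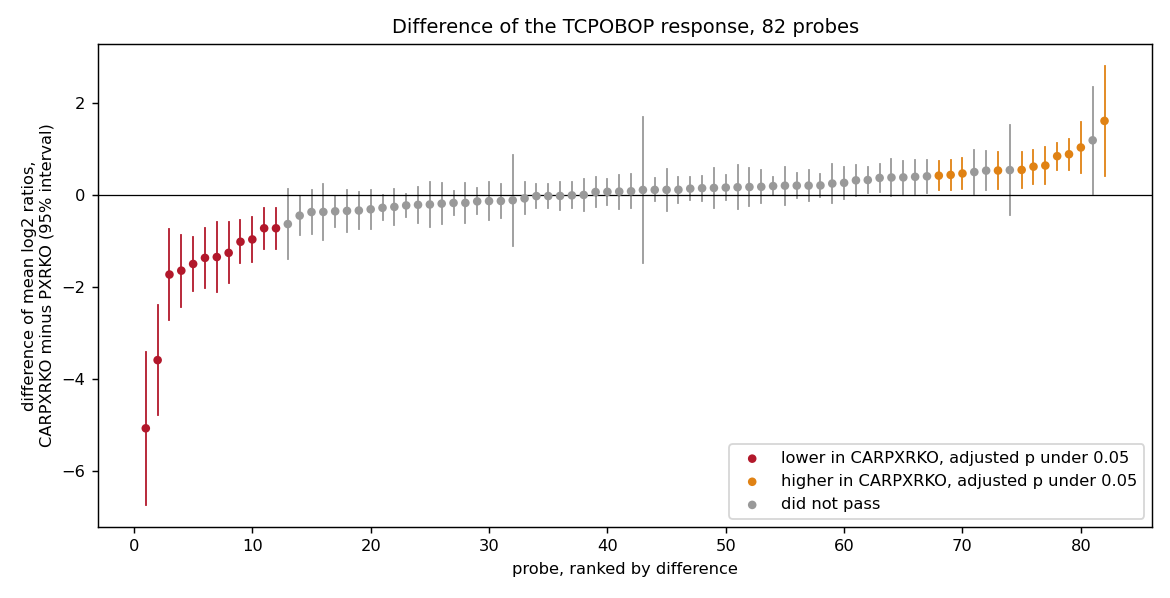
Differences of the mean log2 response, CARPXRKO minus PXRKO, for the 82 tested probes in rank order, with 95% intervals from the limma fit. The 12 lower probes run from −5.07 to −0.73, and the 11 higher probes lie between 0.41 and 1.60.

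The 12 lower probes shared a pattern of mean responses. All 12 had a mean above 0 in PXRKO and all 12 had a mean below 0 in CARPXRKO. The mean responses of these 12 were −0.99 to −0.09 in CARPXRKO, with a median of −0.50, and 0.18 to 4.08 in PXRKO, with a median of 0.98. Of the 12, 3 fell in CARPXRKO and 9 rose in PXRKO when each response was tested against 0. Over all 82 probes, falls in CARPXRKO made up 8.54% and rises in PXRKO 12.2%. These responses come from the arrays that made the difference and are a description of it. Their zero was set by loess over the mouse probes, and the tests against 0 were not repeated with another centring. With calibration spot centring the median difference of all 82 probes was −0.69, so signs of means near 0 may depend on the centring.

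Among the 11 higher probes, mean responses were 0.18 to 0.65 in CARPXRKO and −1.34 to 0.12 in PXRKO. All 11 means were above 0 in CARPXRKO, and 8 of the 11 were below 0 in PXRKO. Of these probes, 7 rose in CARPXRKO, where rises made up 12.2% of all probes, and 4 fell in PXRKO, where falls made up 6.10%. These counts, too, come from the arrays that made the difference, and their signs may depend on the centring in the same way.

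**Figure D2:**
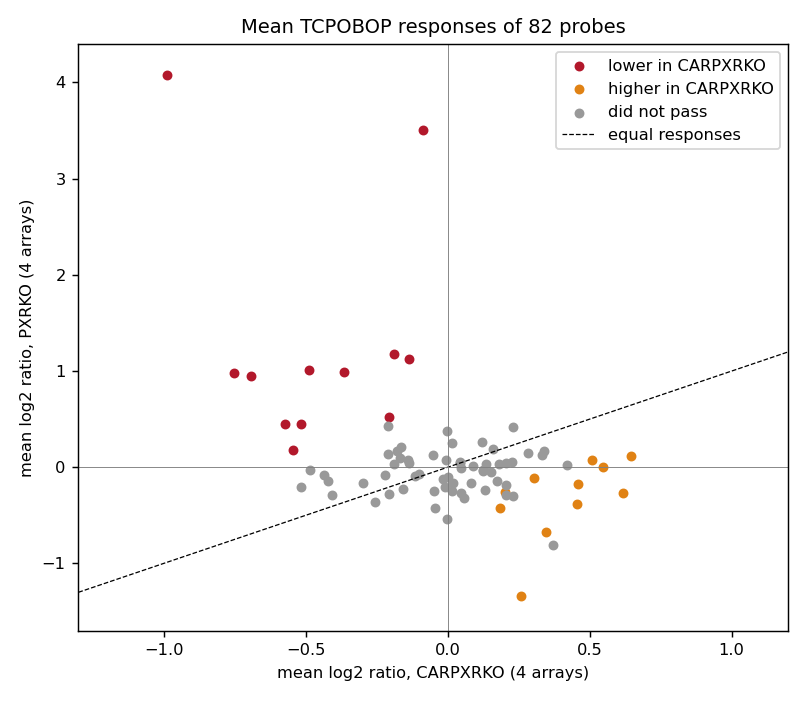
Mean log2 response in CARPXRKO (horizontal axis) against PXRKO (vertical axis) for the 82 tested probes, 4 arrays each, coloured by the test of the difference. The 12 lower probes all lie left of 0 and above 0, and the dashed line marks equal responses.

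Mm038 and Mm039 had the highest responses in PXRKO and the lowest differences. Mm038 gave log2 ratios of −0.50, −0.43, 0.13 and −3.15 on CARPXRKO 1 to 4, against 3.71, 5.10, 3.57 and 3.94 on PXRKO 1 to 4. The value of −3.15 on CARPXRKO 4 rests on 1 spot, and without that array the difference was −4.35 in place of −5.07. The genotypes did not overlap. The Cy5 signal of Mm038 was well above background on 1 of 4 CARPXRKO arrays and on 4 of 4 PXRKO arrays, and in Cy3 on none of the 8.

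The rise of Mm038 in treated PXRKO livers over their pool is therefore given only as an approximate lower bound, 15.4-fold, which was not itself tested. The mean log2 ratio of Mm038 in PXRKO, 4.08, passed the test against 0 (limma, adjusted p = 4.65e-05). The bound was computed from single-channel levels and is open to dye bias, since dyes were not swapped. In CARPXRKO its response averaged −0.99 ± 1.47 (SD, n = 4) and did not pass the test (limma, adjusted p = 0.257). The difference of −5.07 ± 0.79 (SE, limma adjusted p = 2.83e-04) is no measured fold, because the pool signal was not well above background in either genotype.

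Mm039 gave −0.04, −0.10, −0.05 and −0.15 on CARPXRKO 1 to 4, against 3.18, 4.20, 3.07 and 3.56 on PXRKO 1 to 4. The 4 CARPXRKO values lay just below 0, far under the lowest PXRKO value. Cy3 was well above background on 1 of 4 arrays in each genotype, and Cy5 on 3 of 4 CARPXRKO arrays and 4 of 4 PXRKO arrays. The difference was −3.59 ± 0.56 (SE, limma adjusted p = 2.83e-04). It is likewise not a measured fold, and the pair has no order by size.

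Among the 57 tested probes well above background in both channels on at least 2 of the 4 arrays of both genotypes, 10 were lower. Over all 82 tested probes 12 were lower (14.6%). Mm052 and Mm037 had the largest negative differences among the 57. Mm052 gave −1.08, −0.89, −0.44 and −0.59 on CARPXRKO 1 to 4, against 1.56, 0.72, 0.40 and 1.23 on PXRKO 1 to 4. All 4 CARPXRKO arrays were below 0, all 4 PXRKO arrays were above it, and the genotypes did not overlap. Its response was −0.75 ± 0.29 in CARPXRKO and 0.98 ± 0.52 in PXRKO (SD, n = 4 each). The difference of −1.73 ± 0.47 (SE, limma adjusted p = 0.0100) passed the test, and no exact fold is given because some of its spots were saturated in the series. The rise in PXRKO passed the test (limma, adjusted p = 0.0460), and the CARPXRKO mean did not (limma, adjusted p = 0.130). With print-tip loess the difference was −1.37 and no longer passed (limma, adjusted p = 0.0614), and with saturated spots left out Mm052 was not tested.

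Mm037 gave −0.42, −0.38, −0.61 and −1.35 on CARPXRKO 1 to 4, against 1.13, 0.42, 1.15 and 1.12 on PXRKO 1 to 4. CARPXRKO 4 was the lowest of its group and PXRKO 2 stood below the other 3 PXRKO arrays, which lay close together. The response was −0.69 ± 0.45 in CARPXRKO and 0.95 ± 0.36 in PXRKO (SD, n = 4 each). The difference was −1.65 ± 0.37 (SE, limma adjusted p = 0.0030), a 3.13-fold lower ratio. Cy3 was well above background on 3 of 4 CARPXRKO arrays and 4 of 4 PXRKO arrays.

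Among the probes whose fall in CARPXRKO passed the test, Mm007 and Mm054 had the lowest means. Mm007 gave −0.73, −0.76, −0.33 and −0.48 on CARPXRKO 1 to 4, against 0.45, 0.06, 0.54 and 0.74 on PXRKO 1 to 4. The signs were opposite on all 8 arrays. Mm007 fell in CARPXRKO, by 0.57 on average (mean −0.57 ± 0.21, SD, n = 4, limma adjusted p = 0.0141), and averaged 0.45 ± 0.28 in PXRKO (SD, n = 4, limma adjusted p = 0.0540). The difference was −1.02 ± 0.22 (SE, limma adjusted p = 0.0028).

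Mm054 gave −0.42, −0.47, −0.57 and −0.72 on CARPXRKO 1 to 4, against 0.30, −0.09, 0.46 and 0.06 on PXRKO 1 to 4. PXRKO 2 was below 0 and the other 3 PXRKO arrays were above it, and the genotypes did not overlap. Mm054 fell in CARPXRKO, with a mean of −0.54 ± 0.13 (SD, n = 4, limma adjusted p = 0.0141), and averaged 0.18 ± 0.24 in PXRKO (SD, n = 4, limma adjusted p = 0.393). Its difference of −0.73 ± 0.21 (SE, limma adjusted p = 0.0146) was the smallest of the 12 lower probes, by a margin under its error. Without PXRKO 3 it was −0.64 and did not pass (limma, adjusted p = 0.0590).

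The other 6 lower probes had differences of −1.50 to −0.73 and adjusted p-values of 4.87e-04 to 0.0161 in limma. Their mean responses were −0.52 to −0.14 in CARPXRKO and 0.45 to 1.18 in PXRKO. On 4 of these 6 the CARPXRKO values all lay below the PXRKO values. The means of these probes covered a wider range in PXRKO than in CARPXRKO.

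Among the probes whose rise in CARPXRKO passed the test, Mm062 and Mm066 had the highest means. Mm062 gave 0.41, 0.54, 0.75 and 0.76 on CARPXRKO 1 to 4, against −0.41, −0.06, −0.32 and −0.26 on PXRKO 1 to 4. It was above 0 on every CARPXRKO array and below 0 on every PXRKO array. The response was 0.62 ± 0.17 in CARPXRKO (SD, n = 4, limma adjusted p = 0.0024) and −0.26 ± 0.15 in PXRKO (SD, n = 4, limma adjusted p = 0.101). The difference was 0.88 ± 0.16 (SE, limma adjusted p = 4.87e-04).

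Mm066 gave 0.64, 0.44, 0.76 and 0.74 on CARPXRKO 1 to 4, against 0.15, 0.18, 0.09 and 0.06 on PXRKO 1 to 4. All 8 values were above 0, and the lowest CARPXRKO value was above the highest PXRKO value. Mm066 rose in CARPXRKO with a mean of 0.65 ± 0.15 (SD, n = 4, limma adjusted p = 0.0035), while the PXRKO mean of 0.12 ± 0.06 did not pass (SD, n = 4, limma adjusted p = 0.576). Its difference of 0.53 ± 0.19 (SE, limma adjusted p = 0.0459) lay just inside the threshold, and the first probe outside it had 0.52 (limma, adjusted p = 0.0554). Leaving out single arrays ended the call of Mm066 in 6 of 8 cases, with differences of 0.49 to 0.59 (highest limma adjusted p = 0.105). The call also ended with median centring, scale normalization and a filter at 2 arrays. It held in a fit of the 8 arrays alone (limma, adjusted p = 0.0083) and with print-tip loess (limma, adjusted p = 0.0105). Over 28 alternative settings it held in 13, was lost in 14 and had its sign reversed in 1.

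Among probes that passed as higher, Mm001 and Mm150 had the largest differences, and among falls in PXRKO that passed the test theirs were also the largest. Mm105, with a difference of 1.18, did not pass. Mm001 gave 0.17, 0.55, 0.13 and 0.18 on CARPXRKO 1 to 4, against −2.37, 0.82, −1.79 and −2.03 on PXRKO 1 to 4. PXRKO 2 was above all 4 CARPXRKO arrays, so the genotypes overlapped, while the other 3 PXRKO arrays were far below. The response was 0.26 ± 0.20 in CARPXRKO and −1.34 ± 1.46 in PXRKO (SD, n = 4 each). The difference was 1.60 ± 0.57 (SE, limma adjusted p = 0.0456). Without PXRKO 2 it was 2.32 and passed, and leaving out any other array ended the call, with differences of 1.26 to 1.64 (highest limma adjusted p = 0.143). It also ended in a fit of the 8 arrays alone, at an unchanged 1.60 (limma, adjusted p = 0.0749). Over 28 alternative settings the call of Mm001 held in 10 and was lost in 18.

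Mm150 gave 0.39, 0.44, 0.28 and 0.28 on CARPXRKO 1 to 4, against −1.09, 0.10, −0.85 and −0.87 on PXRKO 1 to 4. PXRKO 2 again stood apart from its group, above 0 and below every CARPXRKO array. The response was 0.35 ± 0.08 in CARPXRKO (SD, n = 4, limma adjusted p = 0.253), and Mm150 fell in PXRKO with −0.68 ± 0.53 (SD, n = 4, limma adjusted p = 0.0162). The difference was 1.02 ± 0.26 (SE, limma adjusted p = 0.0073). It ranged from 0.89 to 1.28 when single arrays were left out, and passed each time, while with median centring it was 0.78 and did not pass (limma, adjusted p = 0.0548).

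**Figure D3:**
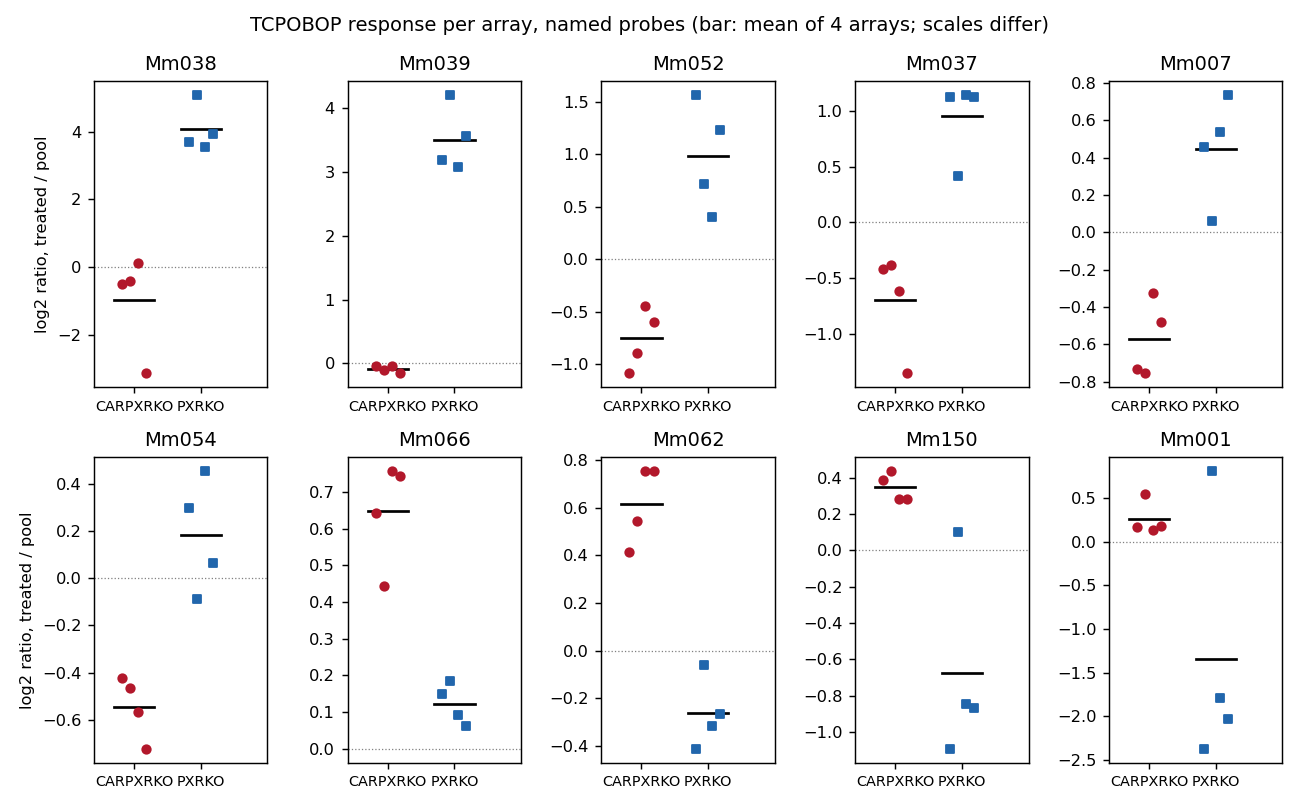
Log2 ratio of treated liver over pool on each array for the 10 named probes, CARPXRKO left (circles) and PXRKO right (squares), with the mean of 4 arrays as a bar; vertical scales differ. Mm001 is the only panel in which the genotypes overlap, through PXRKO 2 at 0.82.

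The other 7 higher probes had differences of 0.41 to 0.84 and adjusted p-values of 2.84e-04 to 0.0459 in limma. Their mean responses were 0.18 to 0.55 in CARPXRKO and −0.42 to 0.08 in PXRKO, and 5 of the 7 had no overlap between genotypes. Centred on the calibration control spots in place of loess, the median difference of all probes was −0.69, and none of the probes passed as higher while 12 passed as lower. All 12 were among the 23 reported. The differences of Mm150, Mm066 and Mm062 were then −0.055, −0.22 and −0.0088 and changed sign. Relative to the median of all probes they were 0.63, 0.47 and 0.68. Mm001 kept its sign at 0.53.

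Over the 82 probes, 25 had no overlap between the genotypes (30.5%), with CARPXRKO below PXRKO for 12 (14.6%) and above it for 13 (15.9%). Of the 12 lower probes 10 were without overlap, and of the 11 higher probes 8. In an exact permutation test of the 4 against 4 arrays (two-sided) the smallest possible p is 0.0286. That value was reached by 24 probes, including 9 of the 10 named ones, and Mm001 had an exact p of 0.143. The called and named probes were chosen by their values on these same 8 arrays, so their counts here are no separate result. After Benjamini-Hochberg adjustment over the 82 probes the lowest value was 0.0976, so this test had no call. With 24 probes at its smallest p, it could not reach the threshold.

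The other 59 probes did not pass. Their differences ran from −0.64 to 1.18. The 95% interval lay within −1 to 1 for 54 of them, so differences of a doubling were outside the interval there, and reached 1 or −1 for 5. Within −0.5 to 0.5 it lay for 21. These intervals hold for loess centring and leave out any error of a genotype's single pool. With calibration spot centring the median difference of all 82 probes was −0.69. A miss of the threshold does not show that the responses were alike.

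Spread differed between the genotypes as well. The SD over 4 arrays was larger in PXRKO for 59 of 82 probes, with a median of 0.16 in CARPXRKO and 0.27 in PXRKO. For 18 of the 23 probes that passed, PXRKO 2 was the PXRKO array nearest to the CARPXRKO mean. Without PXRKO 2 the number that passed was 35, and without PXRKO 3 it was 13. Without CARPXRKO 3, the compared array with conflicting labels, 15 passed, of which 11 were lower and 4 higher.

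A difference of log ratios can lie in the treated livers, in the pools or in both, and single-channel levels were set beside the ratios to show where it lay. These log2 levels were made comparable between arrays by quantile normalization of average intensity, and the Cy3 levels rest on 1 pool per genotype, so they are given without a test. Over the 82 probes the median difference, CARPXRKO minus PXRKO, was 0.10 in Cy5 and 0.06 in Cy3. Among the 12 lower probes the Cy5 level was lower in CARPXRKO for 11, with a median difference of −1.12, and the Cy3 level was higher for 9, with a median of 0.17. Among the 11 higher probes Cy5 was higher for 9, with a median of 0.49, and Cy3 was lower for 7, with a median of −0.13. Over all 82 probes the Cy5 difference had the sign of the difference in response for 56, and the Cy3 difference had the opposite sign for 62, so the Cy3 counts of the called probes were no higher in share than those of all probes.

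The named probes divided by channel. The Cy5 levels of Mm038 and Mm039 were lower in CARPXRKO, but that of Mm038 was well above background on 1 of 4 CARPXRKO arrays, so its Cy5 difference has no measured size. Mm039, above background in Cy5 on 3 of 4 CARPXRKO arrays, had a Cy5 difference of −4.11. The Cy3 levels of both were mostly not above background and are not compared. For Mm037 the Cy5 level was 9.40 ± 0.25 in CARPXRKO and 11.00 ± 0.32 in PXRKO, and the Cy3 level was 10.10 ± 0.21 in CARPXRKO and 10.05 ± 0.08 in PXRKO (SD, n = 4 arrays each). Its difference was thus found in the treated channel. Mm052 differed in both, with −1.20 in Cy5 and 0.53 in Cy3.

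Mm001 and Mm054 went the other way. The Cy3 level of Mm001 was 9.92 ± 0.45 with the CARPXRKO pool and 11.94 ± 0.23 with the PXRKO pool, a difference of −2.02. Its Cy5 level was 10.18 ± 0.48 in CARPXRKO and 10.60 ± 1.24 in PXRKO (SD, n = 4 arrays each), a difference of −0.42. The higher response of Mm001 in CARPXRKO therefore stood beside a difference between the pools, and the treated livers of the 2 genotypes differed by less than the SD in PXRKO. On the CARKO and WT arrays the Cy3 level of Mm001 was 9.56 to 9.98 and 9.59 to 10.13. The PXRKO pool thus stood above the pools of the other genotypes, and the CARPXRKO pool lay near those of CARKO and WT. For Mm054 the difference was 0.11 in Cy5 and 0.84 in Cy3, so its lower response lay in the pool channel. Cy5 differences of 0.91, 0.75 and 0.49 went with Cy3 differences of 0.39, −0.13 and −0.53 for Mm066, Mm062 and Mm150. For Mm007 the differences were −0.70 in Cy5 and 0.32 in Cy3.

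**Figure D4:**
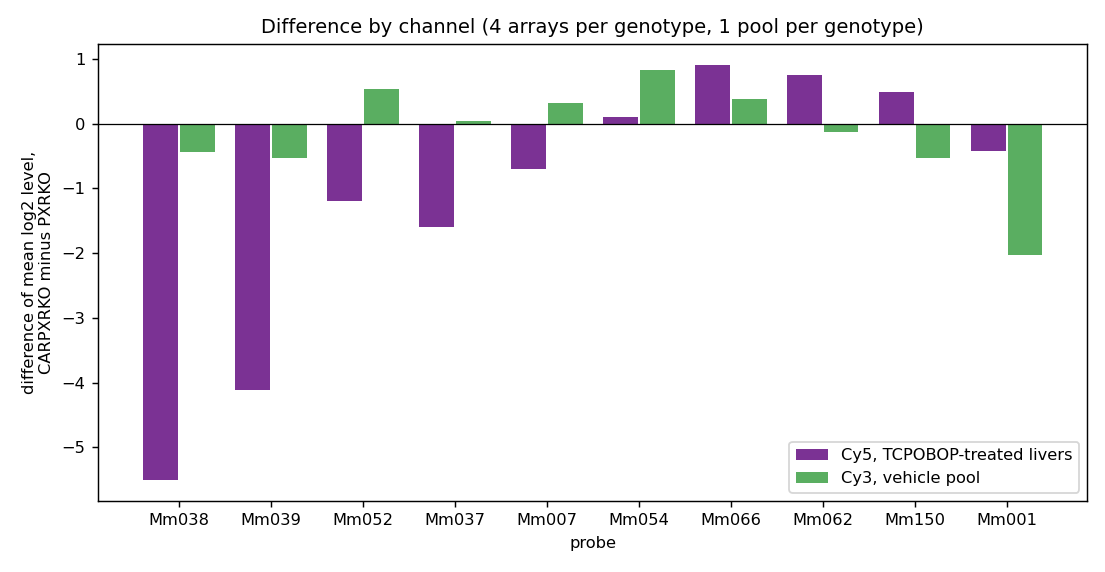
Differences of mean log2 level, CARPXRKO minus PXRKO, in the treated channel (Cy5) and the pool channel (Cy3) for the named probes, 4 arrays and 1 pool per genotype. Mm037 differs mainly in Cy5, at −1.60, and Mm001 mainly in Cy3, at −2.02; the points of Mm038 in both channels and of Mm039 in Cy3 rest on signals mostly not above background and have no measured size.

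Arrays with odd and even replicate numbers lay at high and low vertical scan coordinates in both genotypes, so each position held 2 CARPXRKO and 2 PXRKO arrays. With position as a block 21 probes passed. In the high and low positions taken alone 3 of 79 and 6 of 75 tested probes passed in limma. The named probes had the same sign in both. Mm052 had −1.75 and −1.71 in the high and low positions, Mm037 had −1.65 and −1.64, and Mm007 had −1.03 and −1.01. Mm062 had 0.95 and 0.81, Mm066 had 0.58 and 0.47, and Mm054 had −0.87 and −0.58. Larger gaps between the positions were found for Mm001 (2.23 and 0.97) and Mm150 (1.30 and 0.75). Mm038 and Mm039 were below 0 in both, and their sizes are not compared because the pool signals were mostly not above background.

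The same loss of CAR can be set against intact PXR through the CARKO and WT arrays, which share no array with the comparison above apart from the common estimate of spread. In CARKO minus WT, 9 of 82 probes were lower (11.0%) and 6 higher (7.32%) in limma. Some of these CARKO or WT arrays had conflicting protocol text, and the contrast was not repeated without them. The 12 lower probes had a median of −0.76 in CARKO minus WT, beside 0.04 over all 82, and 7 of them passed there as lower. The 11 higher probes had a median of 0.06, and 1 of them passed there as higher. Whether the effect of CAR loss differed between PXR-deficient and PXR-intact livers was not tested here.

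By probe, the CARKO minus WT difference was −2.56 ± 0.38 for Mm052 (SE, limma adjusted p = 8.92e-05) and −0.71 ± 0.18 for Mm007 (SE, limma adjusted p = 0.0088). It was −0.80 ± 0.30 for Mm037 (SE, limma adjusted p = 0.0674) and 0.43 ± 0.17 for Mm054 (SE, limma adjusted p = 0.0732), which did not pass. Mm038 and Mm039 also passed as lower there, with no size given, because all 4 CARKO arrays with a value had Cy3 signals at or near background. Mm054 had −0.73 without PXR and 0.43 with it, but its Cy5 signal was not well above background on WT 1, WT 2, WT 3 and WT 4. The size and sign of its CARKO minus WT difference are therefore uncertain. For the higher probes it was 0.16 ± 0.13 for Mm062 and 0.34 ± 0.16 for Mm066 (SE, limma adjusted p = 0.429 and 0.128). Those of Mm001 and Mm150 were 0.56 ± 0.47 and 0.35 ± 0.22 (SE, limma adjusted p = 0.429 and 0.277). CARKO 5 stood apart, with responses of 2.54 for Mm001 and 1.06 for Mm150. The other CARKO arrays had −0.17 to 0.07 for Mm001 and −0.32 to 0.07 for Mm150. CARKO 5 was also the lowest CARKO array for Mm052, at −2.14 beside −1.28 to −0.17 on the others. For Mm007 it had −0.79 beside −0.01 to 0.22. For Mm062 and Mm066 it lay within the range of the others. The CARKO minus WT contrast was not repeated without CARKO 5.

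Of the 38 probes not tested, 9 had a value on at least 3 arrays of both CARPXRKO and PXRKO. When these were added, their differences ran from −0.49 to 0.70 and 1 of them was higher in CARPXRKO (limma, adjusted p = 0.0126). The remaining 29 had too few values in one of the 2 genotypes, and 2 of them stood well above background in Cy5 on at least 4 of the 8 arrays.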

How the data were processed

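Total RNA of single livers was labelled with Cy5 and the vehicle pools with Cy3, per the labels. The deposited scanner tables give, per the file headers, foreground and local background intensities of every spot as medians, the background SD and saturated pixels as a percent. The sources used here name neither the image software nor the flag rule. A deposited value table of log2 ratios has unstated centring, with column medians of −0.61 to −0.09 in CARPXRKO and −0.27 to 0.27 in PXRKO. It was used as an alternative only, and for these 8 arrays its columns correlated at 0.83 to 0.99 with ratios of the deposited intensities.

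Intensities of 578 spots were background-corrected with normexp (offset 50), normalized by loess within arrays with control and flagged spots at weight 0, and averaged over unflagged spots in limma 3.58.1 (R 4.3.3). A spot was well above background beyond 2 background SDs, and a probe where most of its spots were. One model with a mean per genotype was fitted to 20 arrays with lmFit and eBayes (3.12 prior and 16 residual degrees of freedom), and the Benjamini-Hochberg adjustment ran over 82 probes with a threshold of 0.05. For the bound, each array's dim side was the probe's Cy3 level or, if higher, the lowest Cy3 level among probes well above background. Identifiers were not paired with genes, so the fixed gene lists were not used. Named were the 2 largest differences each way among probes measured on both sides, and the 2 largest rises and falls of each response. The comparison, lists and rules were chosen with earlier results of these data known. The fit was tested on simulated data.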

Additional observations from a re-analysis of the deposited data

Results flagged for a closer look

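The responses to TCPOBOP of all 10 named probes differed between CARPXRKO and PXRKO by the test of the difference itself (limma, adjusted p under 0.05). Some were named because they passed this test and the others for their responses on the same arrays, so the count of 10 is no separate result. Over all 82 probes 23 passed (28.0%). The log2 differences were −5.07 for Mm038, −3.59 for Mm039, −1.73 for Mm052, −1.65 for Mm037, −1.02 for Mm007 and −0.73 for Mm054. They were 0.53 for Mm066, 0.88 for Mm062, 1.02 for Mm150 and 1.60 for Mm001.

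Single arrays stood far from the other 3 of their group in 4 of 34 sets of 4 arrays examined, by Dixon's ratio at its 95% critical value. Chance gives about 1 in 20. The response of Mm001 on CARPXRKO 2 was 0.55, and that of Mm037 on PXRKO 2 was 0.42. The median Cy3 signal of PXRKO 2 was 776 intensity units. The median Cy5 background of PXRKO 1 was 55.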

How the results depend on the processing

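The 23 probes that passed became 12 with calibration spot centring, 13 without the 4 arrays with conflicting protocol text and 40 with array weights. Of those 4 arrays only CARPXRKO 3 was among the arrays compared, and the others were CARKO or WT arrays. The probes that passed were 3 and 6 among arrays at the high and low vertical coordinate, and 4 in the authors' value table. Leaving out single arrays gave 13 to 35. The exact permutation test gave 0 calls after adjustment, with 24 probes at an unadjusted p under 0.05 and 34 in limma. Higher and lower calls were 11 and 12 as reported, 4 and 12 with median centring, 4 and 12 with scale normalization, 0 and 12 with calibration centring and 0 and 4 in the authors' table. The median of all differences was 0.07 as reported, 0.15 with median centring, −0.69 when centred on calibration spots and −0.41 from the authors' values. The sign turned under calibration centring for Mm150 (−0.055), Mm066 (−0.22) and Mm062 (−0.0088); the cause was not tested. Mm007 and Mm054 had −1.58 and −1.18 in the authors' table (limma, adjusted p = 0.0518 for each). Same-numbered arrays had deviations that correlated at −0.24 to 0.17, over 0.1 in 1 of 4 pairs, and 1 of 8 arrays correlated best with its own number, so the numbers did not pair the samples; the replicate block gave 23 probes. The pool signals near background limit Mm038 and Mm039 to the statements above.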
